A study of Homo sapiens with 3 samples.

Results

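The genes described are the EGF-family ligands EREG, AREG, HBEGF, TGFA, BTC and EGF and the ERBB receptors EGFR, ERBB2 and ERBB3. They were taken by name, as all probe sets annotated to exactly 1 gene symbol among these 9. Of the 9 genes, 8 had such a probe set, 29 in all, out of 19775 genes and 41097 probe sets with 1 symbol on the array. AREG had none and is not analysed here.

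RNA was measured in MDA-MB-231, an established line of human breast cancer cells with a basal phenotype, usually regarded as lacking the estrogen receptor. The 3 groups compared have 1 sample each in the labels: estradiol at 1 µM, tamoxifen at 1 µM, and the vehicle, 0.1% ethanol. Each lasted 3 h and followed 4 h in medium with 10% charcoal-stripped serum, which the 3 groups shared. Estradiol is the chief estrogen of the body, and tamoxifen is a drug that competes with it for its receptor. By its title, the study asked which genes tamoxifen changes early.

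Ligands of the EGF family are made as membrane-bound precursors and are released by proteases of the ADAM family. The released ligand binds EGFR, which pairs with itself or with another ERBB receptor and signals through RAS and ERK to early genes, including genes for its own ligands and for inhibitors of the pathway. ERBB2 binds no known ligand and acts as a partner, and ERBB3 has little kinase activity of its own and binds neuregulins. Breast cancers of basal type often carry much EGFR and little ERBB2 or ERBB3.

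The deposited numbers are log2 values centred near 0 on a baseline that is not stated, so a value is no RNA level, and levels are not compared between genes. With 1 column per group there is no replicate, and no error, interval or p-value can be given for any difference. A difference is called here when it reaches 1.5-fold, or 0.585 on the log2 scale, in either direction. The direction of the scale (a higher value meaning more RNA) is assumed. Brightness was read from the binary rounding of the numbers, and a probe set counts as above the floor when its lowest estimated level was 4 or more on the log2 scale. By this floor 12075 named genes could be compared. Their median difference was 0.02 for estradiol minus vehicle, 0.02 for tamoxifen minus vehicle and -0.02 for tamoxifen minus estradiol. Across all probe sets the columns had an SD of 0.47 with estradiol, 0.46 with tamoxifen and 0.20 with vehicle. The vehicle column also held 296 values of exactly 0, against 93 with estradiol and 94 with tamoxifen, and its numbers had finer binary steps. The labels give 1 vehicle sample, but whether its column comes from 1 array or is a mean of several was not stated. Because the vehicle column is so much narrower, each comparison with vehicle was repeated with the vehicle value multiplied by 2. Which version is nearer the truth was not tested, and the unstated baseline need not cancel in the second. The poly-A control RNAs, added before labelling, were also higher in the ligand columns: over 24 probe sets the median difference was 1.04 (estradiol) and 0.87 (tamoxifen) (0.47 and 0.39 with the vehicle doubled). In the 18 probe sets of the hybridisation controls it was 0.18 and 0.10 (doubling the vehicle gave 0.32 and 0.23). The part of either set in the results below was not tested. All 5 markers of MDA-MB-231 and basal cells (VIM, CD44, CAV1, AXL and MSN) lay in the brightest band, while PGR, FOXA1, TFF1 and CDH1 of the 6 luminal markers lay below the floor. The other luminal markers, GATA3 and the estrogen receptor gene ESR1, lay above it, as did PTPRC of the 3 leukocyte markers with a probe set and 3 of the 5 fibroblast and endothelial markers. ESR1 read -0.02 with estradiol and -0.77 with tamoxifen, against -0.06 with vehicle, so it was lower with tamoxifen than with vehicle (-0.70, or -0.64 with the vehicle doubled) and than with estradiol (-0.75). PTPRC read -0.11 with estradiol and 0.52 with tamoxifen, against 0.30 with vehicle. It was 0.62 higher with tamoxifen than with estradiol, and its estradiol difference from vehicle was -0.40, or -0.70 with the vehicle doubled. TFF1, below the floor, read 3.20 with estradiol and 2.83 with tamoxifen, against 1.78 with vehicle. Its differences from vehicle were 1.42 and 1.05, but -0.36 and -0.74 with the vehicle doubled. The part of these markers in the results below was not tested.

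Of the 8 genes, 5 lay above the floor: the ligand genes EREG, HBEGF and TGFA and the receptor genes EGFR and ERBB2. EREG and TGFA were higher by more than 2-fold with both estradiol and tamoxifen than with vehicle, each by the 1 probe set in its brightest band. The other TGFA probe set above the floor differed by 0.00 with estradiol and 0.69 with tamoxifen. HBEGF, EGFR and ERBB2 did not reach 1.5-fold with either. Of these 5, EREG alone also passed with the vehicle value doubled. The measured members thus gave 2 of 5 higher and 0 of 5 lower with each treatment. Among all named genes above the floor, 5.82% were higher and 2.64% lower with estradiol, and 6.96% and 4.31% with tamoxifen. With the vehicle doubled, 1 of the 5 was higher with each treatment, beside 4.38% of all genes higher and 1.92% lower with estradiol, and 7.13% and 3.64% with tamoxifen. In the 277 genes above the floor with both ligand values above 1, the median vehicle value was 0.38 of the mean ligand value. For EREG it was 0.24, with 35 genes lower, and for TGFA 0.49, with 243 lower. Those genes were picked by their ligand values, so these shares only describe them. The 2 comparisons with vehicle share its column. Each array reads a whole culture, so fewer cells with a transcript and less of it per cell cannot be told apart.

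**Figure D1:**
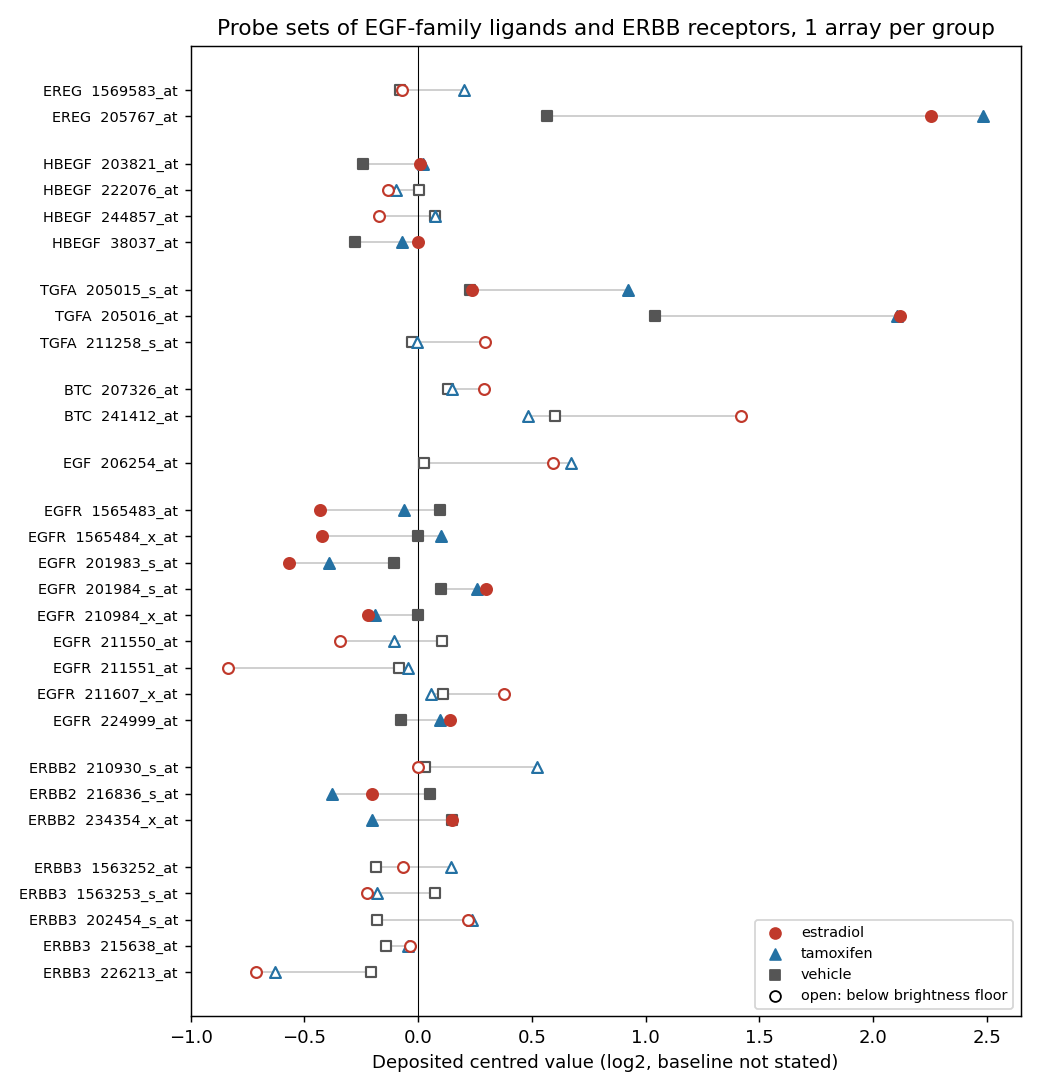
Deposited centred value (log2, horizontal) of each of the 29 probe sets of the 8 genes (vertical), with estradiol as circles, tamoxifen as triangles and vehicle as squares, 1 column each; open symbols are probe sets below the brightness floor. The probe sets 205767_at of EREG and 205016_at of TGFA stand above 2 in both ligand columns, against 0.57 and 1.04 in the vehicle column, while those of EGFR lie on both sides of 0.

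EREG encodes epiregulin, a ligand that binds EGFR and ERBB4 and is known as an early gene of growth factor signalling. Its probe set 205767_at read 2.26 with estradiol and 2.48 with tamoxifen, against 0.57 with vehicle. Both ligand values were far above the vehicle value and close to each other. EREG was thus 3.22-fold higher with estradiol (difference 1.69) and 3.77-fold higher with tamoxifen (1.91). These differences ranked 24th and 11th from the top of the 12075 genes. With the vehicle doubled they were 1.12 and 1.35, which ranked 23rd and 17th. The other probe set of EREG, 1569583_at, lay below the floor and read -0.07 with estradiol, 0.20 with tamoxifen and -0.08 with vehicle. There the estradiol value was level with vehicle and the tamoxifen value was 0.28 above it. With both probe sets averaged the gene differed by 0.85 with estradiol and 1.1 with tamoxifen.

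TGFA encodes transforming growth factor alpha, an EGFR ligand that many carcinomas make. Its brightest probe set, 205016_at, read 2.12 with estradiol and 2.11 with tamoxifen, against 1.04 with vehicle. The treated values were nearly equal and were 2.11-fold and 2.09-fold above vehicle (differences 1.08 and 1.06, ranks 102 and 118). With the vehicle doubled the differences were 0.03 and 0.02, so the call for TGFA rests on the vehicle scale. A second probe set above the floor, 205015_s_at, read 0.23 with estradiol and 0.92 with tamoxifen, against 0.23 with vehicle. It was higher with tamoxifen alone (0.69, or 0.46 with the vehicle doubled), and differed by 0.00 between estradiol and vehicle. The third, 211258_s_at, was below the floor and read 0.30, 0.00 and -0.03 with estradiol, tamoxifen and vehicle. The 3 probe sets, in this order, thus gave differences from vehicle of 1.08, 0.00 and 0.32 with estradiol, and of 1.06, 0.69 and 0.02 with tamoxifen. Averaged, they gave 0.47 with estradiol, within 1.5-fold, and 0.59 with tamoxifen, just past it. The estradiol call for TGFA therefore also rests on 205016_at.

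The promoter windows of the 3 ligand genes above the floor are shown because their brightest probe sets were all above vehicle in both ligand columns, HBEGF by less than 1.5-fold. Each runs from 250 bases before to 50 bases after the RefSeq gene start, is written along the gene's strand, and comes from build GRCh38.p14. Capitals mark matches on either strand to TGACG (the core of a cAMP response element), TGANTCA (the AP-1 site) and to TATAAA, a core promoter element that binds the general initiation factors. The EREG window is chr4:74364895-74365194 (plus strand), the TGFA window chr2:70553777-70554076 (minus strand) and the HBEGF window chr5:140346554-140346853 (minus strand).
EREG: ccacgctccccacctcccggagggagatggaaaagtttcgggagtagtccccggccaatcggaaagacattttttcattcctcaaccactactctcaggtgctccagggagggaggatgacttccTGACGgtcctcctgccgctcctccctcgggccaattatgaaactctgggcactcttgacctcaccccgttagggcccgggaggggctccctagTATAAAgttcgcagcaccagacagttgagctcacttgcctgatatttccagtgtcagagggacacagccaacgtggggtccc
TGFA: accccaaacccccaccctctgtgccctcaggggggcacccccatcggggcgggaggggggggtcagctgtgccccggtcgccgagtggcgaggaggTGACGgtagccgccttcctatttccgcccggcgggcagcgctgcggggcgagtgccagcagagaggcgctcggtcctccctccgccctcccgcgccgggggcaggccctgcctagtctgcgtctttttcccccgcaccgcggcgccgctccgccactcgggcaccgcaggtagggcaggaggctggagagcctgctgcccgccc
HBEGF: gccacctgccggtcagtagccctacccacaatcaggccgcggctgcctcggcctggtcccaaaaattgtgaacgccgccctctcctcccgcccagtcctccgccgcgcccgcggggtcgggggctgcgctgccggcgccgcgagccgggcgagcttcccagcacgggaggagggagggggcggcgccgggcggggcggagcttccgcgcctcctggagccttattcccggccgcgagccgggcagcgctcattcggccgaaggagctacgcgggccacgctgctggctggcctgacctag

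In the EREG window TGACG began 125 bases before the gene start and TATAAA began 32 bases before it. TGACG also stood in the TGFA window, 154 bases before the start, where there was no TATAAA. A second TGFA start in the same table had none of the 3 motifs in its window, and nor did HBEGF. Of all 35116 windows in the table, 24.6% held TGACG, 11.5% TATAAA and 7.71% TGANTCA, so each motif is common. The full cAMP response element TGACGTCA was in 1.85% of windows and the palindromic estrogen response element (GGTCA, then 3 bases of any kind, then its reverse complement) in 0.057%. Neither was in the windows of EREG, TGFA or HBEGF. One arm of the palindrome, GGTCA, stood in all 3: 70 bases before the start of EREG, 190 before that of TGFA, and 240 before and 42 after that of HBEGF. It was in 37.4% of all windows. The GC box GGGCGG stood at 4 places in the TGFA window and 5 in the HBEGF window, and at none in that of EREG, against 45% of all windows with at least 1. The G and C content was 75.3% for TGFA, 75% for HBEGF and 57.7% for EREG. All motifs were searched on both strands, and TGACG is part of TGACGTCA. A match is only a run of letters, and binding was not measured.

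HBEGF encodes heparin-binding EGF-like growth factor, a ligand of EGFR and ERBB4. Its probe sets 203821_at and 38037_at both lay in the brightest band. The first read 0.01 with estradiol and 0.02 with tamoxifen, against -0.24 with vehicle. The second read 0.00 and -0.07, against -0.28. Both probe sets put the ligand columns above vehicle by a similar amount. The gene differed by 0.26 with estradiol and 0.23 with tamoxifen, or 1.2-fold and 1.18-fold, and by 0.52 and 0.49 with the vehicle doubled. None of these reached 1.5-fold. For HBEGF doubling widened the difference because its vehicle value was below 0. Its other probe sets, 222076_at and 244857_at, were below the floor. Under estradiol they lay -0.14 and -0.25 from vehicle, and under tamoxifen -0.10 and 0.00.

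The genes of EGF and betacellulin were dim. EGF, the founding ligand, had 1 probe set, 206254_at, which read 0.60 with estradiol and 0.67 with tamoxifen, against 0.02 with vehicle. Its differences of 0.57 and 0.65 lay on either side of the 1.5-fold limit, and with the vehicle doubled they were 0.55 and 0.62. Since it was below the floor it is not counted among the genes called. BTC encodes betacellulin, which binds EGFR and ERBB4, and both of its probe sets were below the floor. Probe set 241412_at read 1.42 with estradiol and 0.48 with tamoxifen, against 0.60 with vehicle. The estradiol column stood alone there, higher than vehicle by 0.81, and by 0.21 with the vehicle doubled. Probe set 207326_at read 0.29 with estradiol and 0.15 with tamoxifen, against 0.13 with vehicle, so the high value with estradiol was in 1 of the 2.

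Of the receptors, EGFR had 9 probe sets, 6 of them above the floor. The 4 in the brightest band read -0.57 (201983_s_at), -0.42 (1565484_x_at), 0.14 (224999_at) and 0.30 (201984_s_at) with estradiol. In the same order they read -0.39, 0.10, 0.10 and 0.26 with tamoxifen, and -0.11, 0, -0.07 and 0.10 with vehicle. With estradiol 2 of the 4 were therefore below vehicle and 2 above it. Over these 4 the gene difference was -0.12 for estradiol and 0.04 for tamoxifen. The other 2 above the floor were also lower with estradiol: 1565483_at read -0.43 and -0.06 in the estradiol and tamoxifen columns, against 0.10 with vehicle, and 210984_x_at read -0.22 and -0.19, against 0. The differences of the 9 probe sets ran from -0.75 to 0.27 with estradiol and from -0.28 to 0.17 with tamoxifen, and 3 and 4 of the 9 were above 0. The lowest, -0.75 for 211551_at with estradiol, was below the floor and was the only one of the 9 that passed 1.5-fold against vehicle. Without the probe set types that can cross-react, 224999_at alone gave the gene, at 0.22 with estradiol and 0.17 with tamoxifen. With all 9 averaged it was at -0.24 and -0.05, so the sign for EGFR depends on the probe sets used.

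ERBB2, the partner receptor that is amplified in part of breast cancers, had 2 of 3 probe sets above the floor. Probe set 216836_s_at read -0.20 with estradiol and -0.38 with tamoxifen, against 0.05 with vehicle. Probe set 234354_x_at read 0.15 and -0.20, against 0.15. In both the tamoxifen column was the lowest of the 3. The gene difference was -0.13 for estradiol and -0.39 for tamoxifen, or -0.23 and -0.49 with the vehicle doubled, within 1.5-fold in each case. The dim probe set 210930_s_at went the other way with tamoxifen, at 0.52 against 0.03 with vehicle. With all 3 averaged the tamoxifen difference was -0.10.

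ERBB3, the neuregulin receptor, had 5 probe sets and all lay below the floor. Their differences from vehicle ran from -0.51 to 0.40 with estradiol and from -0.42 to 0.42 with tamoxifen, with 3 of 5 above 0 for each. None reached 1.5-fold. Probe set 202454_s_at read 0.22 with estradiol and 0.24 with tamoxifen, against -0.18 with vehicle, and 226213_at read -0.71 and -0.63, against -0.21. These 2 moved in opposite directions by similar amounts under both treatments.

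**Figure D2:**
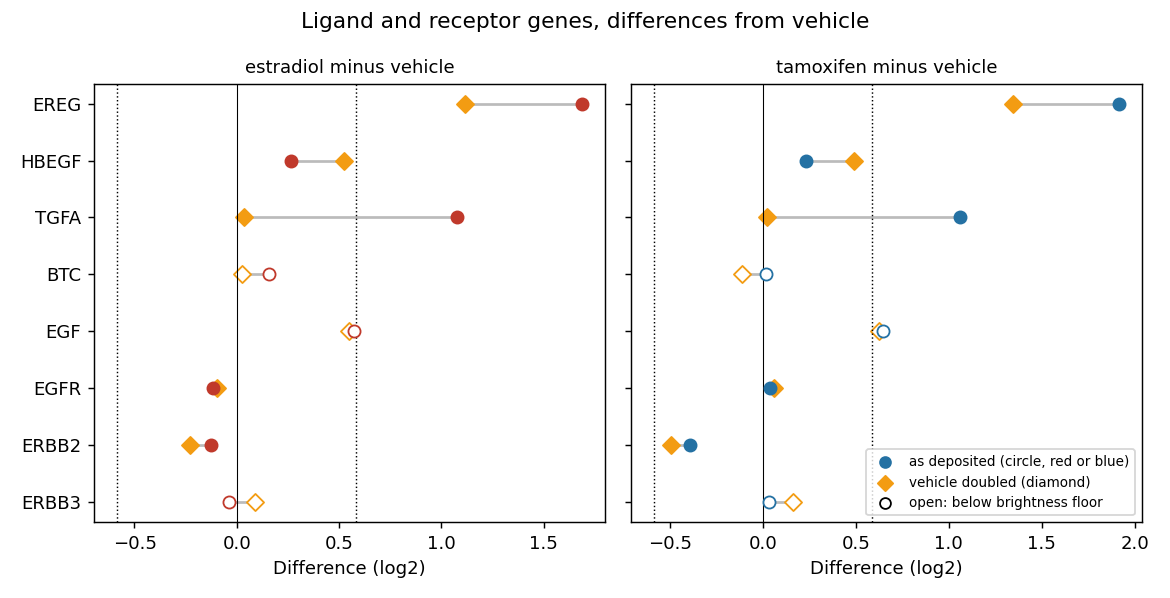
Difference from vehicle (log2, horizontal) of each gene (vertical) for estradiol (left) and tamoxifen (right), as deposited (circles) and with the vehicle value doubled (diamonds); open symbols are genes below the floor and dotted lines mark 1.5-fold. EREG stays to the right of the line in both versions (1.69 and 1.12 with estradiol, 1.91 and 1.35 with tamoxifen), while TGFA moves to 0.03 and 0.02.

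Tamoxifen and estradiol at the same dose and time were also set against each other, a comparison that does not use the vehicle column. None of the 5 genes above the floor reached 1.5-fold in either direction, beside 1.57% of all genes higher and 2.2% lower with tamoxifen. No test was possible, so this does not show that both act alike. EREG was higher with tamoxifen by 0.23 (2.48 with tamoxifen, 2.26 with estradiol), and both of its probe sets had that sign (0.23 and 0.27). The gene difference of TGFA was -0.01, that of HBEGF -0.03, that of EGFR 0.15 and that of ERBB2 -0.26. Single probe sets did pass the limit: of the 29, 2 were higher and 1 lower with tamoxifen. The shares above are of genes, and none was worked out over all probe sets. TGFA 205015_s_at was 1.61-fold higher with tamoxifen (0.92, against 0.23 with estradiol) and the dim EGFR 211551_at 1.73-fold higher (-0.04, against -0.83). The dim BTC 241412_at was lower with tamoxifen (0.48, against 1.42), a difference of -0.94.

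Epiregulin lies on chromosome 4 among genes of its own family. In the RefSeq order of protein-coding genes, EPGN precedes EREG, AREG follows it, and BTC comes next. EPGN and AREG are not analysed here. BTC, as given above, was dim and differed little in its brighter probe set. Farther out, the chemokine gene CXCL2, 3 places before EREG, read 1.19 with estradiol and 0.53 with tamoxifen, against -0.68 with vehicle, which gives differences of 1.87 and 1.21. MTHFD2L, which lies between it and EPGN, differed by 0.40 and 0.29. PARM1 and RCHY1, the first and second genes past BTC, differed by 0.66 and 0.74 and by 0.70 and 0.73. With the vehicle doubled PARM1 was at 0.58 and 0.66, passing 1.5-fold with tamoxifen alone, and RCHY1 was at 0.40 and 0.43. Of these genes above the floor, EREG had the largest tamoxifen difference as deposited and CXCL2 the largest with estradiol. With the vehicle doubled CXCL2 had the largest with each (2.55 and 1.89). CXCL3, the gene before CXCL2, lay below the floor and differed by 0.74 and 0.60, or by 1.19 and 1.05 with the vehicle doubled. Of all genes above the floor, 5.82% were higher by 1.5-fold or more with estradiol and 6.96% with tamoxifen. With the vehicle doubled these shares were 4.38% and 7.13%.

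Genes with a pattern like that of a member were found by the Euclidean distance over the 3 columns, among named genes above the floor. It sets centred values of different probe sets side by side, each relative to its own unstated baseline. Nearest to EREG were SCG5 (distance 0.35), ITGB8 (0.41), SNAI2 (0.42), CD58 (0.43) and SCG2 (0.50). ITGB8, an integrin gene, read 1.84 with estradiol and 2.51 with tamoxifen, against 0.58 with vehicle. SNAI2, a transcription factor of mesenchymal cells, read 2.03 and 2.25, against 0.83. HBEGF had closer neighbours, since many genes lie near 0: FCF1 (0.02), MUC20 (0.02), C1QTNF1 (0.04), EXOC3L2 (0.04) and DNA2 (0.05). Those of EGFR were LTBP2 (0.02), MAP3K2 (0.02), FGFRL1 (0.02), POMGNT1 (0.02) and SUCO (0.02). Over only 3 columns such likeness is a description.

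The other family members gave few values above the floor. Of the neuregulin genes and ERBB4, NRG1 was the only one above it, in the brightest band, with 0.21 with estradiol and 0.19 with tamoxifen, against 0.08 with vehicle. NRG2, NRG3, NRG4 and ERBB4 were below it. The 4 genes for release of the ligands were all above the floor and none passed 1.5-fold. Among all genes 5.82% were higher and 2.64% lower with estradiol, and 6.96% and 4.31% with tamoxifen, so none of 4 lies near these shares. ADAM17, the main protease that releases EGFR ligands, differed by 0.33 with estradiol and 0.42 with tamoxifen, and ADAM10, which also releases betacellulin and EGF, by 0.16 and 0.34. RHBDF2, which carries ADAM17 to the cell surface, differed by 0.49 and 0.24. The list medians were 0.24 for estradiol and 0.29 for tamoxifen, beside 0.02 for all genes with each. With the vehicle doubled they were 0.32 and 0.34, beside 0.07 and 0.06 for all genes.

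Of 12 adaptor and effector genes above the floor, 0 passed the limit with estradiol, beside 5.82% of all genes higher and 2.64% lower. In a list of 12, 0 lies near these shares. With tamoxifen 1 was higher and 1 lower, about the share among all genes (6.96% higher and 4.31% lower). GAB1, a docking protein, read 0.58 with estradiol and 0.77 with tamoxifen, against 0.10 with vehicle, and was higher with tamoxifen by 0.68 (0.58 with the vehicle doubled, just within the limit). SHC1, an adaptor that recruits GRB2 to the receptor, read -0.21 and -0.56, against 0.04, and was lower with tamoxifen (difference -0.60, or -0.64 with the vehicle doubled). CBLB, a ubiquitin ligase that lowers receptor levels, differed by 0.45 and 0.38, and by 0.00 and -0.07 with the vehicle doubled. The list medians were -0.04 and -0.03, or 0.06 and -0.02 with the vehicle doubled. Of the RAS to ERK genes 5 of 10 had a probe set of their own symbol, and all 5 were above the floor. MAP2K1, which encodes the kinase MEK1, differed by 0.46 with estradiol and 0.61 with tamoxifen, and passed with tamoxifen also with the vehicle doubled (0.69). MAP2K2 differed by -0.25 and -0.47 and HRAS by -0.32 and -0.41, and the list medians were -0.19 and -0.30. With the vehicle doubled MAP2K2 was at -0.18 and -0.40, HRAS at -0.04 and -0.13, and the list medians at -0.04 and -0.13.

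Among inhibitors of the pathway SPRY2 was higher with both treatments in both versions of the vehicle column. All 13 were above the floor, with medians of 0.36 for estradiol and 0.32 for tamoxifen (0.14 and 0.29 with the vehicle doubled). With estradiol 3 were higher and 0 lower, beside 5.82% and 2.64% of all genes. With tamoxifen 3 were higher and 1 lower, beside 6.96% and 4.31%. SPRY2, which encodes an inhibitor of RAS to ERK signalling, read 0.96 with estradiol and 1.22 with tamoxifen, against 0.11 with vehicle. Its differences of 0.86 and 1.11 also passed with the vehicle doubled (0.75 and 1.01). The other 2 with estradiol were SPRED2 (0.76) and ERRFI1 (0.69), whose product MIG6 blocks the EGFR kinase directly. With the vehicle doubled they were at 0.52 and 0.40, and DUSP5, another phosphatase of ERK, passed instead (0.62, against 0.43 as deposited). With tamoxifen the other 2 were DUSP6 (0.71), a phosphatase of ERK, and SPRED1 (0.65), of which SPRED1 passed with the vehicle doubled (0.74) and DUSP6 did not (0.48). DUSP1, a phosphatase of several MAP kinases, was lower with tamoxifen (difference -0.59, or -0.69 with the vehicle doubled).

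Of 12 early genes that EGF is known to induce, 11 were above the floor. Of these, 4 were higher with estradiol and 1 with tamoxifen, beside 5.82% and 6.96% of all genes, and none was lower. The 1 of 11 with tamoxifen is near that share. EGR3, a transcription factor gene below the floor and so not counted, differed by 0.54 with estradiol and 0.75 with tamoxifen. FOS read 1.08 with estradiol and 0.90 with tamoxifen, against 0.08 with vehicle, and was higher by 1.0 and 0.82 (0.92 and 0.74 with the vehicle doubled). The others with estradiol were ATF3 (0.77), IER3 (0.69) and MYC (0.69), of which IER3 alone passed with the vehicle doubled (0.67, against 0.48 for ATF3 and 0.54 for MYC). With tamoxifen the same 3 differed by -0.01, 0.47 and 0.31. ATF3 was also the only one of the 11 that passed between the treatments, at 0.28 with tamoxifen and 1.05 with estradiol (difference -0.78). Among all genes 1.57% were higher and 2.2% lower with tamoxifen than with estradiol. The rest of the 11 passed with neither treatment. PHLDA1 differed by 0.37 with estradiol and 0.38 with tamoxifen, JUNB by 0.27 and 0.00, and EGR1 by 0.16 and 0.04. In the same order IER2 differed by 0.04 and 0.03, JUN by -0.04 and 0.00, FOSL1 by -0.01 and -0.38, and KLF6 by -0.18 and -0.48. The list medians were 0.27 with estradiol and 0.03 with tamoxifen, or 0.40 and 0.12 with the vehicle doubled.

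**Figure D3:**
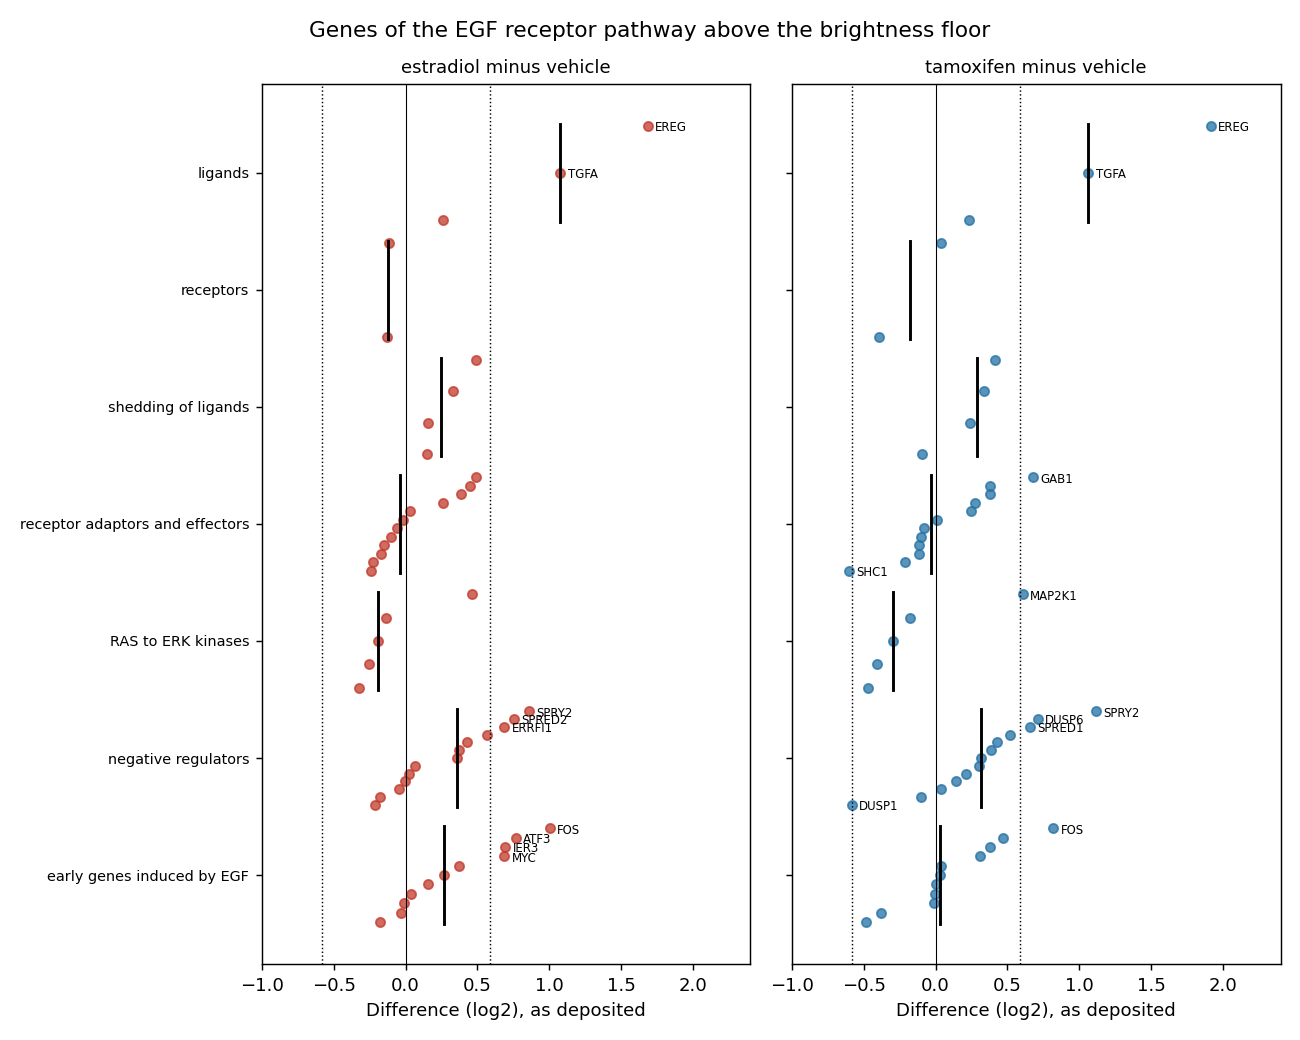
Difference from vehicle as deposited (log2, horizontal) for genes above the brightness floor in 7 groups (vertical), with estradiol left and tamoxifen right; each point is a gene, thick bars are group medians, dotted lines mark 1.5-fold, and genes past them are named. EREG lies farthest right in both panels (1.69 and 1.91), and the inhibitors and early genes lie farther right than the kinases with estradiol (medians 0.36 and 0.27, against -0.19).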

How the data were processed

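RNA of the 3 samples in the labels was hybridised to Affymetrix HG-U133 Plus 2 arrays, which gave 54675 probe sets, per the labels' protocols. The deposited log2 values come from robust multi-array averaging (RMA, version not given in the sources used here), per the submitters' processing notes. They are centred on a baseline that the sources do not state, and the base of the logarithm and the direction are taken from RMA. 

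Probe sets were named from the platform annotation: 41097 had 1 symbol, 1801 several and 11777 none there. A single-precision level is stored in coarser binary steps the brighter it is, so the finest step over the columns gave a band (8 or more, 4 to 8, 2 to 4, below 2). For the vehicle column the reading was moved by 1 step, since its numbers have finer steps than the others. The band is an estimate. It was tried on simulated data built with the same assumptions, single-precision levels and a vehicle column averaged from 2 sets of levels. That trial therefore could not test whether these assumptions hold for the deposited numbers. A gene that is dim in any column can be missed. Each gene took the average of those of its probe sets that shared its brightest band. Differences of columns were computed with pandas 2.3.3 on Python 3.11.15, and no test was run, since each group held 1 column.

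Named were all members and up to 3 genes per pathway list with the largest difference from vehicle. Also named were genes past 1.5-fold where a list had few, all early genes, and the 5 nearest genes to EREG, HBEGF and EGFR. The neighbours of EREG were looked at after other values were seen. The members, lists and settings were chosen with earlier results of these data known. Alternatives were other probe sets, a higher floor, centring of columns, a 2-fold limit and a doubled vehicle.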

Additional observations from a re-analysis of the deposited data

How the results depend on the processing

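As reported, 2 of the 5 genes above the floor passed 1.5-fold with each treatment against vehicle, and this number was 1 under some settings. With the vehicle value doubled it was 1 for each treatment (EREG). In the brightest band alone it was 1 for each (TGFA of 3 genes), since EREG lies in the 4 to 8 band. With all probe sets averaged and no floor it was 1 of 8 with estradiol (EREG, as TGFA was at 0.47) and 3 of 8 with tamoxifen (EREG, TGFA and EGF). Without probe set types that can cross-react, with centred columns and at 2-fold it was 2 for each treatment. For tamoxifen against estradiol it was 0 under every setting tried. The share among all genes was worked out only at 1.5-fold above the floor, as deposited and with the vehicle doubled. The counts under the other settings have no such share beside them, so they are not read as more or fewer than among all genes. Centring shifted the columns by -0.03 with estradiol, -0.03 with tamoxifen and -0.04 with vehicle. ERBB2 had no value without the probe set types that can cross-react. No paired analysis was possible because each group held 1 column, which also left no replicate to leave out. Dim probe sets limit what can be said of EGF, BTC and ERBB3.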
